A study of Mus musculus with 18 samples.

Results

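The rows described here are passenger arms of miRNA hairpins, the strands that older miRNA catalogues marked with an asterisk because they were recovered less often than the opposite strand. In the table of 583 mature miRNA rows, 102 names end in an asterisk. Of these, 18 were left out: all rows of the miR-297, miR-466, miR-467 and miR-669 families, and single arms such as miR-9*, miR-21*, miR-141* and miR-200b*. The remaining 84 rows hold 83 distinct sets of values, because let-7a* and let-7c-2* are equal in every library, and they stand among 571 distinct rows in all. The choice was made by name and not by a measured value, but with earlier results of these data known.

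The libraries are small RNA of mammary tumours from a panel of 18 AKXD recombinant inbred strains, which descend from a cross of AKR/J and DBA/2J mice. Every strain was bred to FVB/N-TgN(MMTV-PyVT)634Mul, so that all 18 groups consist of F1 mice carrying the polyoma virus middle T transgene under the mouse mammary tumour virus promoter, a promoter active mainly in mammary epithelium. Each strain contributed 1 library made from pooled tumour RNA, which gives n = 1 per strain, no untreated or transgene-free group, and no test between strains. The sources used here state neither ages nor how many tumours entered a pool, and strains are named by their AKXD number.

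A miRNA hairpin is cut by Drosha in the nucleus and by Dicer in the cytoplasm into a short duplex of a 5p and a 3p strand. An Argonaute protein keeps one strand as the guide, preferring the strand whose 5′ end is less tightly paired and begins with U, and the other strand is usually degraded. Both strands of a hairpin come from the same transcript. Where each strand has a single locus, their ratio in a library reflects events after transcription, including strand loading and decay. It also reflects how well each strand is captured during library preparation. Guides such as miR-7a and miR-16 are made from several loci. Their rows hold reads of each locus, so the ratios of miR-7a* and miR-16* can also follow transcription.

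The mature sequences are from RefSeq (build GRCm38.p6), which had an entry for the passenger strand of 36 of the 38 arms measured at a mean of at least 10 CPM (counts per 1e+06 reads), and for both strands of 35. Asterisk names were matched to the names that replaced them. Of these 38, the arms shown first are those with more reads than their partner, or about as many, and the capitals mark the seed, bases 2 to 8 from the 5′ end, which does most of the target pairing.
miR-140* (miR-140-3p, chr8:107551288-107551308, plus strand): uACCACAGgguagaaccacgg
miR-28* (miR-28a-3p, chr16:24827908-24827929, plus strand): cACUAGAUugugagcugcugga
miR-28 (miR-28a-5p, chr16:24827868-24827889, plus strand): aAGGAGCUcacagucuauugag
miR-455* (miR-455-5p, chr4:63256867-63256888, plus strand): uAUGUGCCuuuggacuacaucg
miR-455 (miR-455-3p, chr4:63256904-63256924, plus strand): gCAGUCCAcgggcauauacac
miR-376a* (miR-376a-5p, chr12:109723786-109723807, plus strand): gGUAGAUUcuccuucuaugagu
miR-376a (miR-376a-3p, chr12:109723824-109723844, plus strand): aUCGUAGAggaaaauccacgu
miR-376b* (miR-376b-5p, chr12:109723471-109723492, plus strand): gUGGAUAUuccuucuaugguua
miR-376b (miR-376b-3p, chr12:109723508-109723528, plus strand): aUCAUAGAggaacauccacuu

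The next set shows strands with far fewer reads than the partner, from let-7, miR-30 and miR-27 hairpins. let-7a* and let-7b* share the seed UAUACAA, and miR-30a* and miR-30e* share UUUCAGU and differ at 1 of 22 bases.
let-7a* (let-7a-1-3p, chr13:48538188-48538209, minus strand): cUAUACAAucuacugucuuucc
let-7a (let-7a-5p, chr13:48538239-48538260, minus strand): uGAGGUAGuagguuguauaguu
let-7b* (let-7b-3p, chr15:85707379-85707400, plus strand): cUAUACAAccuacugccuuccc
let-7b (let-7b-5p, chr15:85707325-85707346, plus strand): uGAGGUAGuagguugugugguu
miR-30a* (miR-30a-3p, chr1:23272315-23272336, plus strand): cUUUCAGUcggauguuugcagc
miR-30a (miR-30a-5p, chr1:23272274-23272295, plus strand): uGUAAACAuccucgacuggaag
miR-30e* (miR-30e-3p, chr4:120772618-120772639, minus strand): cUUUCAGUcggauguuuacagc
miR-30e (miR-30e-5p, chr4:120772660-120772681, minus strand): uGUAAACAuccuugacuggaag
miR-27b* (miR-27b-5p, chr13:63300718-63300739, plus strand): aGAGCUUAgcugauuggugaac
miR-27b (miR-27b-3p, chr13:63300760-63300780, plus strand): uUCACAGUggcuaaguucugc

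The third set shows passenger strands that tell apart 2 loci of the same guide, since the guide sequences of these loci are identical and only the passenger strand names the hairpin of origin.
miR-24-1* (miR-24-1-5p, chr13:63301213-63301235, plus strand): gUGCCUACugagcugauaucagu
miR-24-2* (miR-24-2-5p, chr8:84208839-84208860, plus strand): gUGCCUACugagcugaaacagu
miR-24 (miR-24-3p, both loci): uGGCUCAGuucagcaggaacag
miR-30c-1* (miR-30c-1-3p, chr4:120769546-120769567, minus strand): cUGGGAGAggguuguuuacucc
miR-30c-2* (miR-30c-2-3p, chr1:23291754-23291775, plus strand): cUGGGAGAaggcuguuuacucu
miR-30c (miR-30c-5p, both loci): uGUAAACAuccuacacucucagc

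Among the 35 passenger sequences, 3 began with U, 13 with C, 12 with A and 7 with G. Among the 33 distinct partner sequences, 16 began with U, 9 with A, 5 with C and 3 with G. The passenger strand was the 3p strand in 23 cases and the 5p strand in 12. The median length was 22 bases on both sides, and the median GC content was 50% in passenger and 45.5% in partner strands. The 3 passenger strands that begin with U are miR-330*, miR-455* and miR-872*. miR-140*, which is not among these 35, also begins with U, whereas miR-28* begins with C.

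Libraries held 4361213 (strain 7) to 14939850 (strain 27) reads. Levels are CPM after scaling with TMM, the trimmed mean of M values, which moved whole libraries by -0.74 (strain 28) to 0.58 log2 (strain 14) against scaling by total counts alone. Strains 10, 13, 14 and 20 stood apart from the other strains at the low end of the first principal component of all measured miRNAs (27.6% of the variance), and results that rest on them are given with and without them. TMM also raised these strains the most, by 0.37 (strain 20) to 0.58 log2 (strain 14), so their high levels depend partly on scaling. All 5 listed miRNAs of mammary epithelium had reads in every library, with a summed level of 28501 (strain 16) to 54692 CPM (strain 25). All 4 skeletal muscle miRNAs were also present, summing to 22461 (strain 9) to 303042 CPM (strain 14), and their part in the results was not tested. In such bulk pools, fewer cells of a type and less RNA per cell cannot be told apart.

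Passenger arms made up a small share of miRNA reads, and a few hairpins supplied most of it. They held 0.958% of the reads in strain 11 (Wilson 95% interval 0.951% to 0.965%), a median of 1.45%, and 2.85% in strain 25 (2.84% to 2.86%). miR-140*, miR-30a* and miR-30e* together gave 70.9% (strain 27) to 86.8% (strain 25) of those reads. The excess of strain 25 lay in miR-140*: that arm alone held 1.83% of all reads there and 0.212% in strain 11. Without it, the other arms summed to 0.746% (strain 11) to 1.45% (strain 28), with strain 25 at 1.02%. In strain 28 the let-7c row held only 80127 reads, against 939799 (strain 22) or more in every other strain. The smaller total raises the shares and the total-count levels of strain 28. The cause of that low value was not tested. These intervals are for counting error alone, because PCR copies were not marked.

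Of the 83 arms, 38 reached a mean of 10 CPM, 10 of these reached 100 CPM, 22 lay between 1 and 10 CPM, and 23 lay below 1 CPM. Reads were present in every library for 65 arms, in 10 or more but not all for 13, and in fewer than 10 for 5. The rarest were miR-1982*, with 3 reads in 2 strains, and miR-374*, with 6 reads in 3 strains. Zero reads in a library allow a level of up to 0.201 (strain 27) to 0.688 CPM (strain 7), taking 3 reads as the limit and before TMM scaling. The level plot shows the 38 arms at 10 CPM or more.

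**Figure D1:**
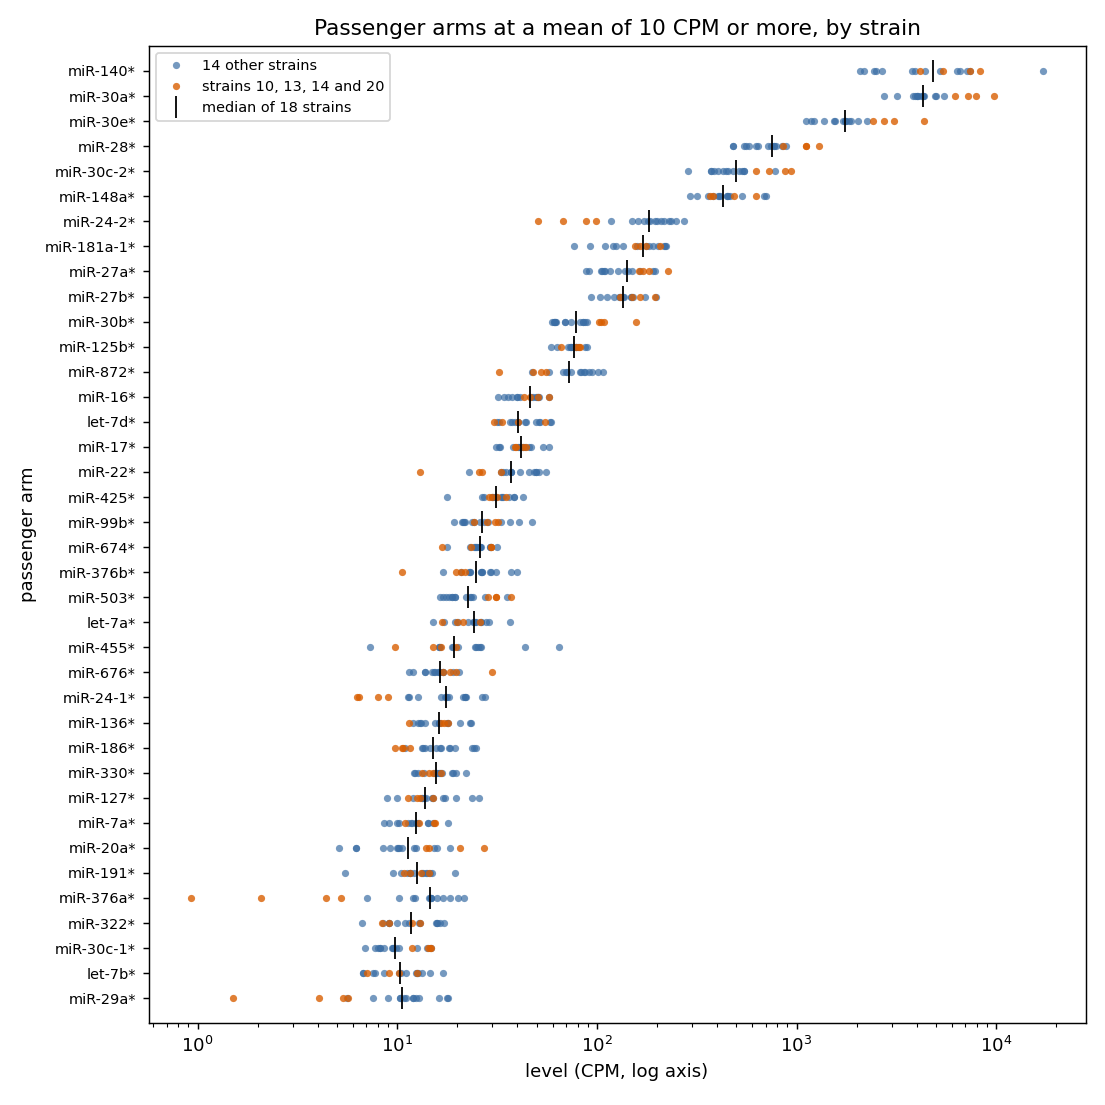
Level of each of the 38 passenger arms at a mean of 10 CPM or more in the 18 strains (x axis, TMM-scaled CPM on a log axis), ordered by mean. Each point is 1 pooled library, orange points are strains 10, 13, 14 and 20, and black ticks are medians; miR-140* of strain 25 is the point at 17152 CPM and miR-376a* of strain 10 the point at 0.928 CPM.

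Of the tested passenger arms, miR-140* most exceeded its partner, and it had the highest mean level (5509 CPM, against 4976 CPM for miR-30a*). That order rests on strain 25, without which the means were 4824 and 4977 CPM, and miR-30a* was the highest passenger arm in 11 strains and miR-140* in 7. Its hairpin lies within the gene Wwp2, which encodes a ubiquitin ligase, and its best known site of expression is cartilage. miR-140* ranged from 2085 (strain 3) over a median of 4824 to 17152 CPM (strain 25), and miR-140 from 456 (strain 18) to 3865 CPM (strain 25). Strain 25 was the highest in both arms, and the next highest miR-140* level was 8305 CPM in strain 10. miR-140* held 75.7% to 90.2% of the reads of its hairpin (median 82.2%), so the strand with the asterisk was the major strand in all 18 strains. Its log2 ratio to miR-140 was 1.64 (strain 27), 2.21 (median, 4.63-fold) and 3.20 (strain 14), with an adjusted p of 2.19e-05 in a sign-flip permutation test. The median was 2.15 without strains 10, 13, 14 and 20.

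That test was run on each of the 57 arm pairs of the table with both rows at 10 CPM or more, of which 31 are passenger arms described here, 12 are asterisk rows left out by the choice of names and 14 are rows named -3p and -5p. It asks whether the per-strain log2 ratios of reads centre on 0, and p-values were adjusted by Benjamini-Hochberg over all 57. They measure the spread among these libraries, which are pools without replicates. Of the 31 passenger arms, 3 lay above their partner (9.68%, against 17.5% of all 57 pairs) and 27 below it (87.1%, against 80.7%). The median log2 ratio was -4.24 over the 31 pairs and -3.52 over the other 26 pairs. For pairs named -3p and -5p, the ratio was of the -3p to the -5p row, whichever strand was more frequent. Of those 14 pairs, 7 lay above and 7 below, with a median of 0.34. All 12 asterisk rows left out lay below their partner, with a median of -5.55. The plot of passenger against partner levels shows the few points at or above the line of equal levels.

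**Figure D2:**
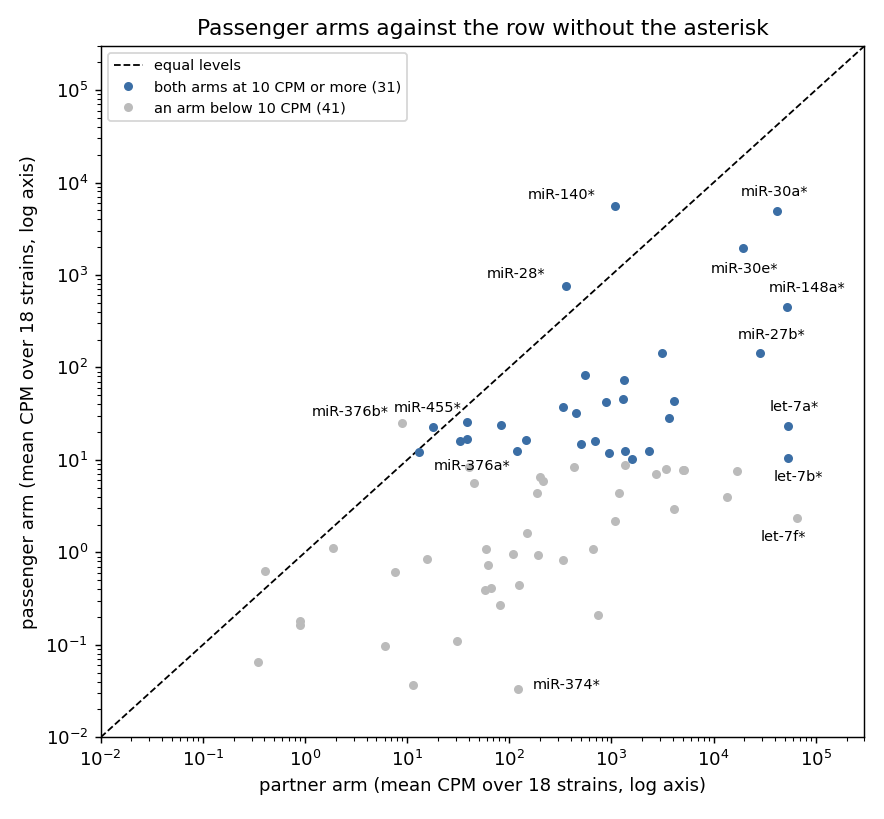
Mean level over 18 strains of each passenger arm (y axis) against the row of the same name without the asterisk (x axis), both in CPM on log axes, for 72 pairs. Blue points have both arms at 10 CPM or more, grey points do not, and the dashed line marks equal levels; miR-140*, miR-28*, miR-455* and miR-376b* lie above it, as does miR-485* at 0.623 CPM, while let-7a*, let-7b* and let-7f* lie farthest to the lower right.

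miR-28* was the second arm above its partner. It ranged from 478 (strain 16) over 756 to 1296 CPM (strain 10), while miR-28 ranged from 235 (strain 21) to 495 CPM (strain 27). The log2 ratio was -0.04 in strain 27, 1.13 in the median (2.20-fold) and 1.84 in strain 14, above 0 in 17 of 18 strains (sign-flip permutation test, adjusted p = 3.23e-05). Strain 27, where both strands were about equally frequent, was also the strain with the lowest ratio of miR-140*. Without strains 10, 13, 14 and 20 the median was 0.98 and the call stood (same permutation test, adjusted p = 0.000221).

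miR-455* was the third, with a much smaller margin. Its levels were 7.32 (strain 7), 19.4 (median) and 64.7 CPM (strain 25), and those of miR-455 were 10.1 (strain 20) to 45.2 CPM (strain 25). The ratio lay between -0.99 (strain 7) and 1.13 (strain 2), with a median of 0.39, and was above 0 in 14 of 18 strains (sign-flip permutation test, adjusted p = 0.026). The call was lost without strain 2 (median 0.39, permutation test, adjusted p = 0.0533). Strains 7, 14, 20 and 27 had more reads of miR-455 than of miR-455*.

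miR-376a*, from the imprinted Dlk1-Dio3 region on chromosome 12, was neither above nor below its partner over the panel (median log2 ratio 0.06, adjusted p = 0.166 by the sign-flip permutation test). Its ratio split the strains more than that of any other tested passenger arm. The 4 lowest values were -3.11 in strain 10, -2.80 in strain 13, -1.51 in strain 20 and -1.27 in strain 14, followed by -1.04 in strain 23, and the other 13 strains lay between -0.44 (strain 7) and 0.64 (strain 21). The ratio of strain 10 rests on 8 reads of miR-376a* against 73 of miR-376a, and that of strain 13 on 21 against 149. The level of miR-376a* was 0.928 CPM in strain 10 and 21.5 CPM in strain 18, whereas miR-376a stayed between 8.47 (strain 10) and 17.5 CPM (strain 22). Without strains 10, 13, 14 and 20, the median ratio was 0.15 and again not called (permutation test, adjusted p = 0.348).

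The neighbouring hairpin miR-376b, 241 bases upstream of miR-376a on the same strand, did not split in this way. miR-376b* had more reads than miR-376b in all 18 strains, with log2 ratios of 0.74 (strain 14) to 2.79 (strain 27) and a median of 1.48. It was not among the 31 tested pairs because miR-376b averaged 8.96 CPM. The lowest level of miR-376b*, 10.6 CPM, was again in strain 10, against a median of 24.8 CPM. miR-376a and miR-376b differ at 3 of 21 bases, and miR-376a* and miR-376b*, set off by 1 base, at 5 of 21, so that reads could be split between the rows of either strand and the ratios are less certain.

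The pairs nearest below 0 were those of miR-674*, miR-330*, miR-676*, miR-503* and miR-30b*. Both arms had to average 10 CPM or more, so a low partner could enter only with a ratio not far below 0. miR-674* had a median log2 ratio of -0.61 (-1.01 in strain 9 to -0.16 in strain 7), and miR-330* of -1.03 (-1.91 in strain 10 to -0.41 in strain 22). miR-676* followed with -1.21 (-1.56 in strain 10 to -0.84 in strain 24). These 3 passenger strands held a median of 39.6%, 32.8% and 30.2% of the reads of their hairpins. miR-503*, from a hairpin related to miR-16 on the X chromosome, had -1.82 (-2.49 in strain 22 to -0.71 in strain 10), and miR-30b* had -2.66 (-4.17 in strain 16 to -1.06 in strain 10).

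The let-7 arms lay at the other end. let-7 miRNAs repress growth genes such as Ras and Hmga2, and their guide strands are among the most abundant miRNAs of differentiated tissue. let-7b averaged 53742 CPM and let-7b* only 10.6 CPM, with a range of 6.75 (strain 27) over 10.3 to 16.9 CPM (strain 22). The log2 ratio of let-7b* was -13.54 (strain 10), -12.43 (median, 5522-fold) and -10.70 (strain 22). let-7a*, which has the same 22 bases as let-7c-2* and so may hold reads of either hairpin, had a median of -11.13 (-12.21 in strain 10 to -9.86 in strain 22). let-7d*, with 30.4 (strain 13) over 40.3 to 59.1 CPM (strain 21), was the most abundant let-7 passenger arm and had the least negative median, -6.50. let-7f*, let-7g* and let-7i* averaged under 10 CPM, with median ratios of -14.89, -11.69 and -8.78.

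In let-7a* and let-7b*, strain 10 held the lowest ratio and strain 22 the highest. Those strains had, in the same order, the highest and the lowest level of the let-7a and let-7b guides. let-7b was 85270 CPM in strain 10 and 28240 CPM in strain 22, against 6.75 to 16.9 CPM for let-7b* over the whole panel. All 7 let-7 arms had a partner row or a shared partner row, and let-7c-1* (0.794 to 2.98 CPM) had the lowest ratio of all, a median of -16.45 to the shared let-7c row. Of the 3 let-7 pairs tested, 3 lay below the partner and none passed the test of correlation across strains (median Spearman's rho -0.21, against 0.33 over all 57 pairs; unadjusted p from 0.118 for let-7d* upwards). Reads of let-7a* and let-7b*, which differ at 3 of 22 bases, could be exchanged by mapping.

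After let-7b* and let-7a*, the lowest median ratios were those of miR-20a* (-7.74), miR-27b* (-7.63) and miR-29a* (-7.22). miR-20a belongs to the miR-17-92 cluster, which promotes proliferation, and miR-20a* ranged from 5.14 (strain 18) over 11.4 to 27.2 CPM (strain 13). miR-27b, linked to lipid metabolism and vessel growth, averaged 28177 CPM, and miR-27b* ranged from 93.5 (strain 22) over 136 to 198 CPM (strain 25). miR-29a represses collagen genes, and miR-29a* ranged from 1.51 (strain 10) over 10.6 to 17.9 CPM (strain 27). The share of miR-29a* in its hairpin was 0.211% in strain 10, where it rests on 13 reads, and 0.840% at most. Over all 72 pairs, filtered or not, the median log2 ratio was -5.66.

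The 5 miR-30 arms together ranged from 4415 (strain 16) over 6596 to 15187 CPM (strain 10) and exceeded miR-140* in 14 of 18 strains. miR-30 guides share 1 seed and are linked to the epithelial state, and miR-30a and miR-30c-2 lie on chromosome 1, miR-30e and miR-30c-1 on chromosome 4. miR-30a* ranged from 2742 (strain 16) over 4288 to 9808 CPM (strain 10), and miR-30e* from 1110 (strain 25) over 1753 to 4329 CPM (strain 10). The 2 arms differ at 1 of 22 bases, so the split of reads between them is uncertain. Their ratios to the partner were -3.20 (-3.58 in strain 25 to -2.44 in strain 10) and -3.46 (-4.13 in strain 25 to -2.40 in strain 10), so that miR-30a* held 7.72% to 15.6% of its hairpin's reads and miR-30e* 5.40% to 15.9%. All 3 miR-30 pairs tested lay below the partner, with a group median of -3.20 against -3.92 over all 57 pairs. Strain 10 held the highest ratio in all 3.

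Some guides are made from several loci, and there the passenger strand tells the loci apart, although its level does not measure how much guide each locus makes. miR-24-2*, from chromosome 8, ranged from 50.9 (strain 10) over 182 to 273 CPM (strain 21), and miR-24-1*, from chromosome 13, from 6.26 (strain 10) over 17.4 to 27.6 CPM (strain 25). miR-24-2* was 10.0-fold above miR-24-1* in the median. The log2 difference stayed between 2.89 (strain 13) and 4.14 (strain 2), so both passenger arms kept their order in every strain. Both arms were lowest in the same 4 strains: the miR-24-2* levels were 50.9, 67.4, 88.4 and 99.0 CPM in strains 10, 13, 20 and 14, and the next was 117 CPM in strain 23. The shared miR-24 row ranged only from 15132 to 36766 CPM. The median log2 ratios to that row were -7.00 for miR-24-2* and -10.39 for miR-24-1*.

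The passenger arms of the miR-30c and miR-181a loci were more unequal. miR-30c-2*, from chromosome 1, ranged from 287 (strain 21) over 500 to 933 CPM (strain 20), and miR-30c-1*, from chromosome 4, from 6.86 (strain 24) over 9.71 to 14.8 CPM (strain 20), a median of 46.5-fold apart. miR-30c-2* reached a ratio of -0.23 to the shared miR-30c row in strain 10 and was at -2.98 in strain 16 (median -1.83). miR-181a-1*, with 77.2 (strain 16) over 170 to 222 CPM (strain 11), was 411-fold above miR-181a-2*, which had reads in 16 of 18 strains and 87 reads in all. miR-218-1* and miR-218-2* had 21 and 17 reads over all strains and are given as present only. A passenger strand's level also depends on how fast that strand decays, so these folds are of reads and not of transcription.

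Neighbouring hairpins gave passenger levels that did not always move together. The miR-27a and miR-24-2 hairpins lie 56 bases apart on chromosome 8, in the cluster that also makes miR-23a. In strain 10, miR-24-2* was at its lowest (50.9 CPM) while miR-27a* was at its highest (226 CPM). The log2 difference of miR-27a* and miR-24-2* accordingly ran from -1.14 (strain 28) to 2.13 (strain 10), with an SD of 0.94. With total counts alone strain 10 was still lowest in miR-24-2*, but strain 2 was highest in miR-27a* (205 CPM). On chromosome 13, where miR-27b and miR-24-1 lie 423 bases apart, the difference of miR-27b* and miR-24-1* ran from 2.09 (strain 22) to 4.76 (strain 10).

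Other neighbours kept a steadier relation. miR-191* and miR-425*, 384 bases apart on chromosome 9, differed by a median of -1.35 log2 with an SD of 0.22. let-7d* and let-7a*, with hairpins in the let-7 cluster on chromosome 13, differed by 0.92 with an SD of 0.27. The let-7a* row may also hold reads of let-7c-2* from chromosome 15, so this relation may not be of neighbours alone. miR-30a* and miR-30c-2*, 19361 bases apart on chromosome 1, differed by 3.24 with an SD of 0.34. miR-17* and miR-20a*, 402 bases apart in the miR-17-92 host gene, varied more, from 0.50 (strain 13) to 2.74 (strain 18). These are differences of log2(CPM + 1) within a library, where library scaling cancels apart from the pseudocount.

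The passenger arms kept here varied somewhat less between strains than the table as a whole. The SD of log2(CPM + 1) over the 18 strains had a median of 0.37 over the 38 arms and 0.45 over all 281 rows at 10 CPM or more, although counting alone gave passenger arms a larger SD (median 0.092 against 0.051). None of the 38 arms reached an SD of 1, whereas 20 of the 281 rows did (7.12%). The nearest was miR-376a* with 0.99, and it passed 1 in some of the alternatives. Of the 13 asterisk rows at 10 CPM or more that the choice of names left out, 2 reached an SD of 1. The low spread is thus of the arms kept, not of asterisk rows in general. The 38 arms also had a lower median of mean levels, 27.0 against 98.6 CPM, and the added 1 CPM understates differences of low arms. Because there is 1 library per strain, no test was made, and the SD holds differences between strains, pools and libraries alike.

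The other widely varying arms were miR-140* (0.81), miR-29a* (0.74), miR-24-2* (0.67), miR-455* (0.67), miR-24-1* (0.62), miR-20a* (0.57), miR-30e* (0.50), miR-22* (0.50) and miR-30c-2* (0.46). Most of these spreads rested on strains 10, 13, 14 and 20: without them, the SD was 0.38 for miR-376a*, 0.41 for miR-29a*, 0.32 for miR-24-2* and 0.30 for miR-30e*. Those of miR-140* (0.86) and miR-455* (0.69) did not rest on them. The steadiest arms were miR-125b* (SD 0.15, 58.7 to 89.1 CPM), miR-17* (0.22), miR-330* (0.23), miR-674* (0.23) and miR-16* (0.24). Scaling matters here: with total counts alone, 14 of the 38 arms had the same highest strain and 21 the same lowest strain as with TMM, and the SD of miR-125b* was 0.31. Strain 10 stayed highest in miR-30a*, miR-30b* and miR-30e*. The highest strain changed from 10 to 28 for miR-28* and from 20 to 25 for miR-30c-2*.

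Ratios within a library do not depend on scaling, and they varied beyond counting error. The SD of the log2 ratio was more than 2 times that of counting in 30 of the 31 pairs, with medians of 0.43 and 0.098. The same held for 56 of all 57 pairs, with medians of 0.53 and 0.097, so it was not particular to passenger arms. miR-376a* (1.12), miR-30b* (0.78), miR-20a* (0.77), let-7d* (0.69) and let-7b* (0.62) varied most, and miR-676* least (0.18, against 0.14 from counting). Without strains 10, 13, 14 and 20 these values were 0.43, 0.57, 0.56, 0.67, 0.55 and 0.17. All 27 pairs called below the partner were below it in all 18 strains.

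**Figure D3:**
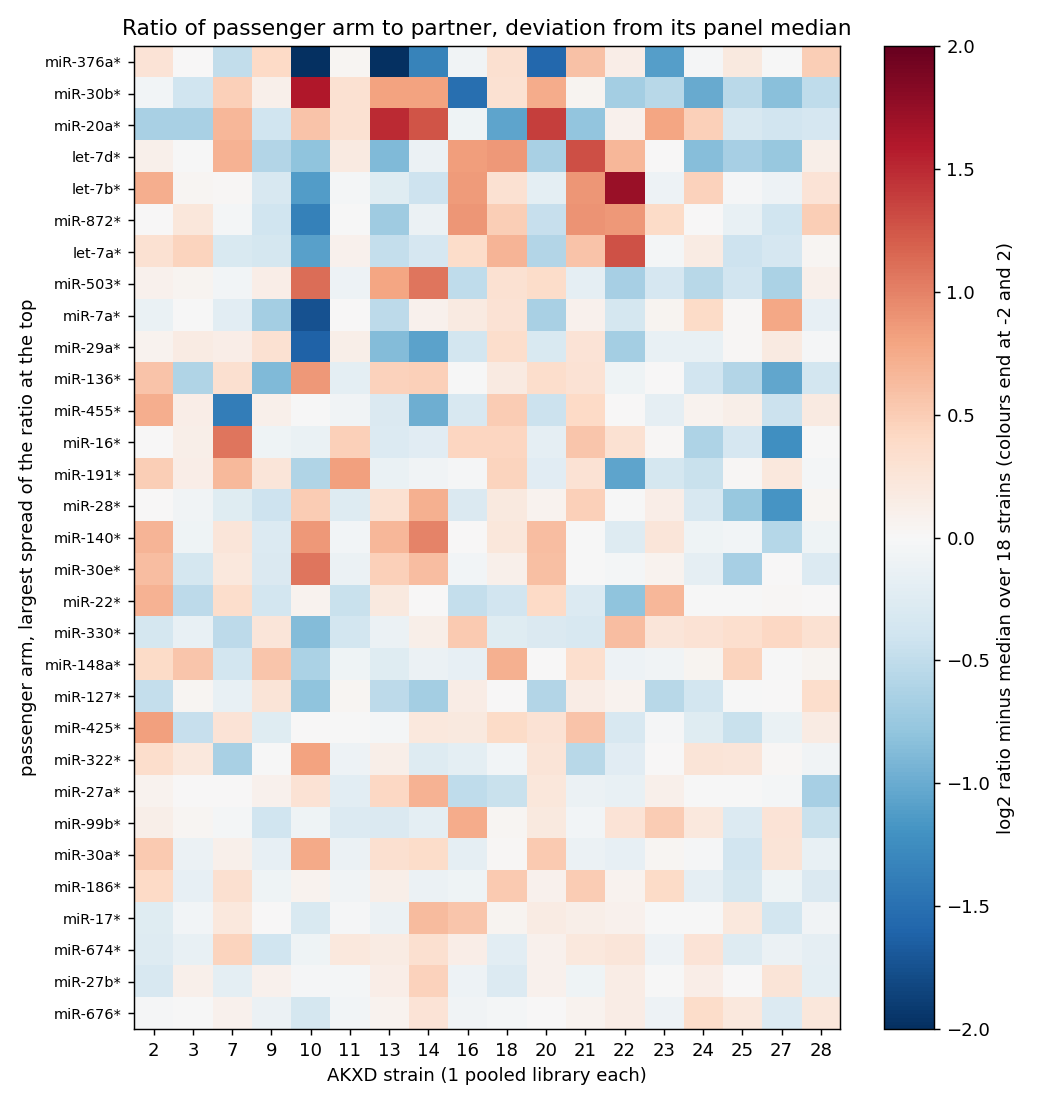
Log2 ratio of passenger arm to partner minus its median over the 18 strains, for the 31 tested pairs (rows, largest SD at the top) and the strains (columns); red is above and blue below the median, and colours end at -2 and 2. Strain 10 holds the strongest colours, dark blue in miR-376a*, miR-7a* and miR-29a* and red in miR-30b* and miR-503*.

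Strain 10 departed most from the other strains in the ratios of the arms. It held the lowest ratio of 10 of the 31 pairs and the highest of 6, and in 9 pairs it lay more than 1 log2 from the panel median. The next most frequent strain at that distance was strain 14, in 4 pairs. The median absolute deviation of the 31 ratios from their panel medians was 0.76 log2 in strain 10 and between 0.11 and 0.36 in the others. Of its 31 ratios, 18 lay below the panel median. These counts were made for the 31 pairs only, and not for the other 26. Strain 10 also lay lowest on the first principal component of all measured miRNAs. Its departure is thus not shown to be particular to passenger arms. The median over the 31 pairs was lower in strain 10 than in any other strain (-4.76, next -4.48 in strain 27). The median over the other 26 pairs was higher there than in any other strain (-2.68). Of those 26 pairs, 14 are ratios of a -3p to a -5p row, whichever strand was more frequent. The medians of both sets are therefore not of the same measure.

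Some arms had their 4 extreme ratios in strains 10, 13, 14 and 20. miR-27a*, miR-503* and miR-30b* had their 4 highest ratios there, and miR-376a* its 4 lowest. For miR-30b*, the values were -1.06, -1.86, -1.85 and -1.91 in strains 10, 13, 14 and 20, and -4.17 to -2.18 elsewhere. For miR-503*, they were -0.71, -1.04, -0.76 and -1.46, and -2.49 to -1.52 elsewhere. For miR-27a*, they were -4.15, -4.02, -3.75 and -4.22, and -5.11 to -4.33 elsewhere. These strains were picked out from the same libraries, so their values are a description. Summed skeletal muscle miRNAs were 303042, 169940, 154074 and 36544 CPM in strains 14, 13, 20 and 10 (ranks 1, 2, 5 and 15). Summed leukocyte miRNAs were lowest in strains 10, 20 and 13 (1572, 2155 and 2209 CPM), but strain 14 ranked 4 (6610 CPM). Endothelial miRNAs ranked 1, 3, 4 and 5 in strains 14, 10, 13 and 20. Those of mammary epithelium ranked 2, 3, 4 and 8 in strains 10, 13, 20 and 14. Ranks count from the highest TMM-scaled level, and TMM raised these strains the most. By share of all reads, endothelial miRNAs were 1.23% in strain 10 and 2.03% in strain 27. The part of these cell types in the ratios was not tested.

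Whether both arms of a hairpin rise and fall together across strains was asked with Spearman's rho of log2(CPM + 1), a two-sided permutation test with 100000 resamples and adjustment over the same 57 pairs. Both arms share the library and its scaling. Of the 31 passenger arms, 9 were positively correlated with their partner (29.0%), against 15 of all 57 pairs (26.3%), so the share was near that of the table. None was negatively correlated, nor was any of the 57 pairs (0%). At an unadjusted p under 0.05 the passenger arms gave 12 positive and 1 negative correlation, and Pearson's r, adjusted in the same way, called 12 positive and 0 negative. With total counts alone in place of TMM, 19 of 31 were called, against 56.9% of all pairs. Without strains 10, 13, 14 and 20, 10 of 32 pairs were called positive and 1 negative, against 29.3% of all 58 pairs called positive, and 6 of the 9 pairs were among them; in that setting 3 pairs lay above and 28 below their partner.

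**Figure D4:**
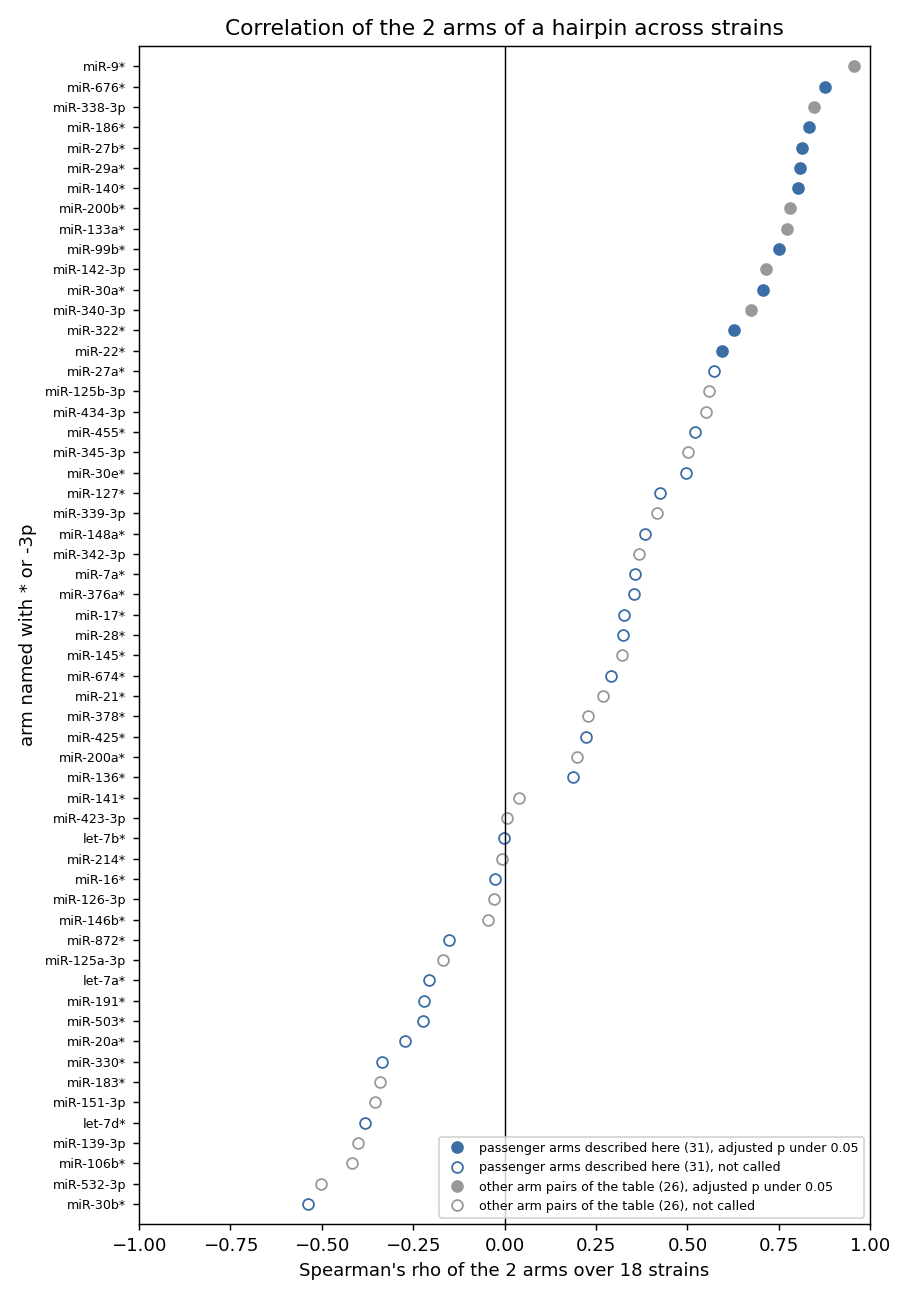
Spearman's rho of both arms of a hairpin over 18 strains (x axis) for 57 arm pairs (y axis), with passenger arms described here in blue and other pairs in grey. Filled points have an adjusted p under 0.05; the blue ones run from miR-22* at 0.59 to miR-676* at 0.88, and miR-30b* at -0.54 is the lowest of all.

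The tightest pairs included low and abundant arms alike. miR-676* ranged from 11.5 (strain 22) over 16.3 to 29.7 CPM (strain 14), and miR-676 from 24.0 (strain 22) to 56.9 CPM (strain 14). Spearman's rho was 0.88 (permutation test, p = 1e-05, the smallest it can give, adjusted p = 0.000285) and Pearson's r was 0.85 (p = 2e-05, adjusted p = 0.000285), or 0.80 without strains 22 and 28, the farthest from the partner's median. Strains 22 and 14 were the lowest and highest in both arms. With total counts alone, rho was 0.63 and strains 13 and 28 were the extremes of miR-676*.

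miR-186*, whose hairpin lies in an intron of the splicing regulator gene Zranb2, ranged from 9.74 (strain 14) over 15.1 to 24.9 CPM (strain 9), and miR-186 from 451 (strain 20) to 1174 CPM (strain 9). Its rho was 0.83 (permutation test, p = 3e-05, adjusted p = 0.00057) and r was 0.81 (p = 6e-05, adjusted p = 0.000489), or 0.74 without strains 9 and 20. miR-27b* had rho 0.81 (p = 7e-05, adjusted p = 0.000798) and r 0.81 (p = 4e-05, adjusted p = 0.00038) by the same permutation tests, or 0.80 without strains 14 and 22. Both kept the call without strains 10, 13, 14 and 20, with rho of 0.68 (adjusted p = 0.0371) and 0.72 (adjusted p = 0.0268) in the permutation test. miR-27b* and miR-27b were lowest in strain 22 and stood highest in strains 25 and 10.

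miR-29a* had rho 0.81 (permutation test, p = 0.00013, adjusted p = 0.00123) and r 0.86 (p = 1e-05, adjusted p = 0.000285), or 0.73 without strains 10 and 25. miR-140* had rho 0.80 (p = 0.00019, adjusted p = 0.00155) and r 0.85 (p = 2e-05, adjusted p = 0.000285) in the same permutation tests, or 0.74 without strains 18 and 25. Strain 25, the highest in both arms of miR-140, was thus not needed for the relation, and rho was 0.93 without strains 10, 13, 14 and 20 (adjusted p = 0.00058). miR-29a*, at a mean of 10.1 CPM, is near the filter and was below it without strain 9, 24, 25, 27 or 28. Without strains 10, 13, 14 and 20, its rho was 0.81 (permutation test, adjusted p = 0.00706). Strains 2, 10, 13, 14 and 20 had the highest ratios of miR-140* (2.83 to 3.20), and the other strains lay at or below 2.46.

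The other 4 called pairs were miR-99b* (rho 0.75), miR-30a* (0.71), miR-322* (0.63) and miR-22* (0.59), with adjusted p between 0.00348 and 0.0444 in the permutation test. miR-30a* and miR-22* were no longer called without strains 10, 13, 14 and 20 (rho 0.53 and 0.33, adjusted p = 0.148 and 0.49). miR-99b* was not called there either, nor without strain 18, and miR-322* was not called without strain 24. miR-22* was also lost without any one of strains 7, 10, 11, 13, 20, 24 and 25. miR-27a* (rho 0.57, adjusted p = 0.0534 by the permutation test) lay just outside the threshold, and was called without strain 13, 14, 16, 18, 27 or 28 and by Pearson's r (0.62, adjusted p = 0.0195). Over the 9 called arms, the median ratios to the partner ran from -7.63 (miR-27b*) to 2.21 (miR-140*), so correlated arms were found both far below and above the partner.

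**Figure D5:**
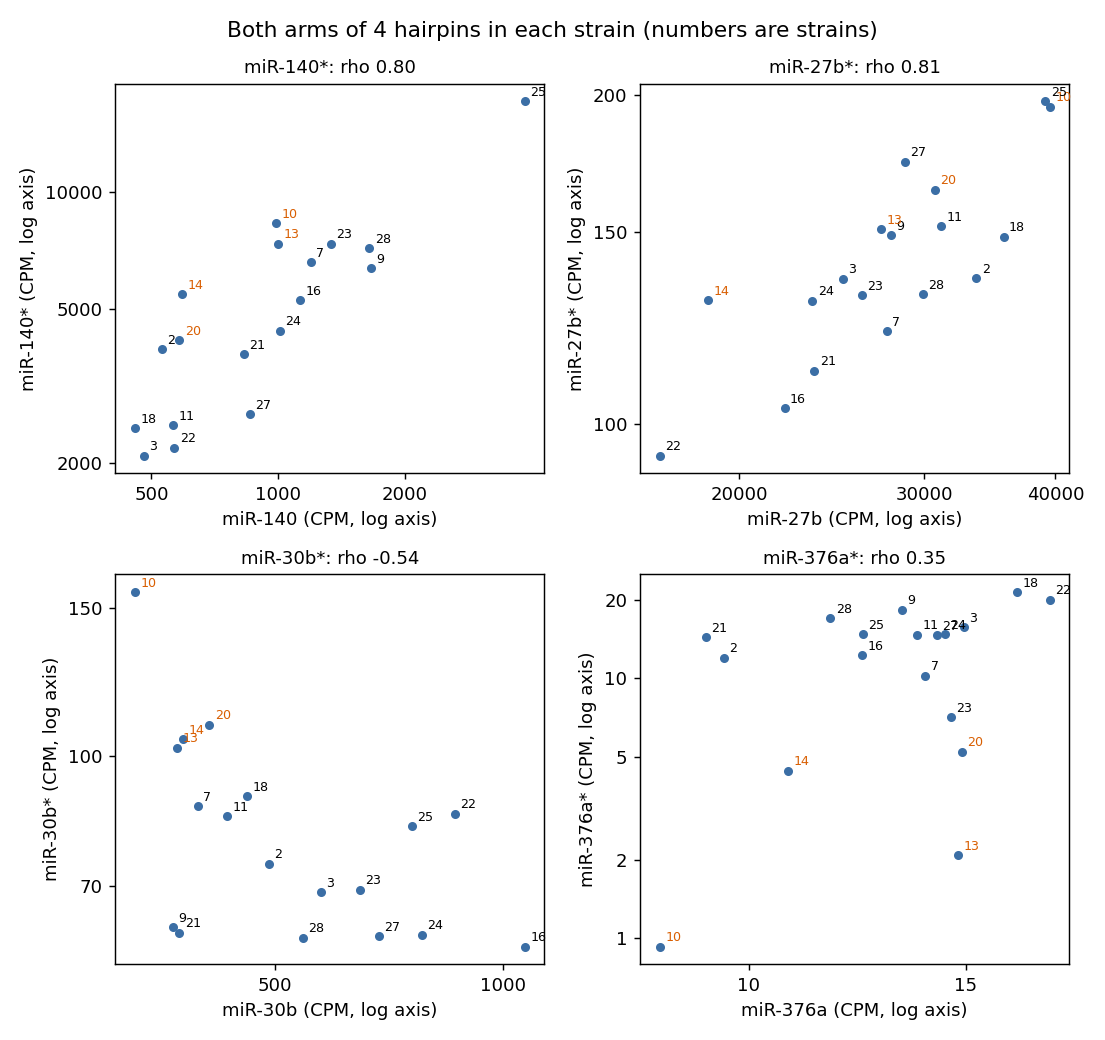
Levels of both arms of the miR-140, miR-27b, miR-30b and miR-376a hairpins in each strain, passenger arm on the y axis and partner on the x axis, in CPM on log axes; numbers are strains, and strains 10, 13, 14 and 20 are numbered in orange. miR-140* and miR-27b* follow their partners (rho 0.80 and 0.81), miR-30b* is highest where miR-30b is lowest, in strain 10, and miR-376a* is lowest in strains 10, 13, 14 and 20.

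miR-30b* had the most negative correlation with its partner. It ranged from 59.4 (strain 16) over 78.5 to 156 CPM (strain 10), and miR-30b from 326 (strain 10) to 1068 CPM (strain 16), so the strains with the extreme levels changed places between the arms. Spearman's rho was -0.54 (permutation test, p = 0.0233, adjusted p = 0.07) and r was -0.53 (p = 0.0217, adjusted p = 0.0539), or -0.57 without strains 16 and 22. It was not called, but it was called in the permutation test without strain 9 (rho -0.65, adjusted p = 0.0218), strain 21 (-0.63, 0.0324) or strain 27 (-0.61, 0.0438). With total counts alone it was -0.05, and without strains 10, 13, 14 and 20 it was -0.18 (permutation test, adjusted p = 0.726).

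let-7d* (rho -0.38, permutation test, adjusted p = 0.232) was the next lowest, and was called without strain 14 (rho -0.60, adjusted p = 0.043) and without strains 10, 13, 14 and 20 (-0.64, adjusted p = 0.0489). let-7d was lowest in strain 21, at 2188 CPM, where let-7d* was highest, at 59.1 CPM. The rho of miR-330*, miR-20a* and miR-503* was -0.34, -0.27 and -0.22, none of them called, with adjusted p between 0.283 and 0.48 in the permutation test. With total counts alone, the values of miR-330* and miR-503* turned to 0.41 and 0.20, again not called. Positive and negative values alike thus moved with the scaling in these pairs.

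By family, the counts were small. Of the Dlk1-Dio3 arms, 12 were present and 4 reached 10 CPM (miR-127*, miR-136*, miR-376a* and miR-376b*), with a median SD of 0.39. The 3 tested pairs had a median ratio of -3.06, and none was called correlated (median rho 0.35, unadjusted permutation p from 0.0809). miR-127 and miR-136 lie antisense to an exon of Rtl1, a retrotransposon-derived gene of that region. miR-127* ranged from 8.92 (strain 25) over 13.8 to 25.7 CPM (strain 18), and its share of the hairpin's reads from 1.89% to 4.10%. miR-136* ranged from 11.5 (strain 10) over 16.2 to 23.3 CPM (strain 18), with 5.48% to 17.8% of the hairpin's reads.

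The miR-17 type arms numbered 7, of which miR-17* (31.4 to 57.8 CPM) and miR-20a* reached 10 CPM, and over all 7 the median ratio was -7.74. miR-92a*, whose guide averaged 732 CPM, had only 40 reads over all strains and a median ratio of -12.02. Of the miR-15/16 family, miR-16* (31.8 to 57.6 CPM, ratio -4.81) and miR-322* (6.63 to 17.1 CPM, ratio -6.34) reached 10 CPM. The 3 passenger arms of epithelial miRNAs, miR-200c*, miR-203* and miR-31*, averaged under 10 CPM, with median ratios of -10.89, -8.50 and -7.45. miR-203*, whose guide strand represses p63 in skin epithelium, was highest in strain 2 (21.6 CPM), as was miR-203 (9931 CPM). The only blood cell arm, miR-150*, averaged 0.732 CPM and was highest in strain 27, which also had the highest miR-150.

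Of the remaining abundant arms, miR-148a* ranged from 293 (strain 23) over 430 to 706 CPM (strain 18), with 0.527% to 1.32% of its hairpin's reads. miR-872*, from an intron of the ciliary transport gene Ift74, ranged from 32.3 (strain 10) over 72.4 to 108 CPM (strain 18), with a ratio of -5.60 to -3.35. miR-7a*, from an intron of Hnrnpk, ranged from 8.57 (strain 9) over 12.4 to 18.0 CPM (strain 24), and its ratio was -4.76 in strain 10 against a median of -3.01. There miR-7a was at its highest, 296 CPM, against 69.9 CPM in strain 21. The guide miR-7a is also made at another locus, so this ratio is not of a single hairpin. miR-22*, with 13.0 (strain 10) over 37.1 to 55.8 CPM (strain 27), and miR-425*, with 17.7 (strain 22) over 31.3 to 42.9 CPM (strain 18), held medians of 10.6% and 6.47% of their hairpins' reads.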

How the data were processed

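The 18 libraries of small RNA, 1 per AKXD strain, came from frozen tumours, extracted with the mirVana kit per the labels' protocols, and were read on a Genome Analyzer IIx per the series' design text. The authors deposited 1 table of log2 values with 2 decimals. Per the submitters' processing notes, BWA and mm9 were involved; no version or role is recorded. The counting tool, miRNA set and filters were not given in the sources used here. How reads that match several hairpins were assigned is not stated either, which bears on near-identical arms.

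Reads were recovered from the deposited log2 values: raised to base 2, they are whole multiples of 1 constant for each library (1.0 to 1.39). This was checked on the 3813 values that stand for 50 reads or fewer, 100.0% of which came within 0.006 log2 of a multiple. Above that, 2 decimals make the reads approximate. A 0 stands for no reads, except that strain 25 has a constant of 1.0 and a 0 there can also be 1 read. The planned unit, log2, was the unit found.

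Of the rows, 20 in 8 sets have equal values throughout and were used as 1 row per set. Libraries were scaled by TMM (30% of log ratios and 5% of abundances trimmed, factors 0.671 to 1.67), and 1 CPM was added before log2, which understates differences of low arms. Ratios are log2 of reads of the passenger arm over the partner, or of the -3p over the -5p row, with 0.5 read added to each. Rows had to average 10 CPM or more, and the tests were two-sided permutation tests (100000 resamples) with Benjamini-Hochberg adjustment over 57 arm pairs at a threshold of 0.05. The statistics were tested on simulated data. Python 3.11.15, numpy 2.4.6, pandas 2.3.3, scipy 1.17.1 and matplotlib 3.10.9 were used. Hairpin positions and host genes are from RefSeq and GENCODE on GRCm38, matched by name, since the table has no coordinates.

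Nothing in the labels ties libraries to separate cultures or animals beyond the strain, so p-values measure the spread among these pools. The rows and lists were chosen with earlier results of these data known. Named were the 10 arms with the highest mean, the 10 with the largest and the 5 with the smallest SD, every pair with a median ratio above 0, the 5 pairs nearest below 0, the 5 lowest, the 5 with the largest ratio SD, the 5 highest and 5 lowest rho, the let-7 and miR-30 arms, and arms with a locus number. miR-376b*, miR-374*, miR-1982*, the other called pairs, and the arms of the family, neighbour and last paragraphs were named after their values were seen. Alternatives were other scalings, filters, pseudocounts and definitions of the ratio and the correlation, each strain left out in turn, and strains 10, 13, 14, 20 and 28 left out together. The shared row as partner of arms with a locus number was added for the correlation after the data had been seen.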

Additional observations from a re-analysis of the deposited data

How the results depend on the processing

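The count of 9 correlated pairs was 19 of 31 with total counts alone, 14 with no filter (72 pairs, with miR-15a* called negative), 14 at a minimum of 1 CPM (53 pairs) and 4 at 100 CPM (7 pairs), where 56.9%, 21.1%, 24.5% and 50% of all pairs were called positive. It was 8 with median-of-ratios scaling, 10 with upper-quartile scaling, and 6 (without strain 24) to 11 (without strain 2) with 1 strain left out. The filters also set the pairs below their partner, 66 with no filter, 48 at 1 CPM and 5 at 100 CPM, and the median ratio, -5.66, -5.23 and -3.46. Requiring the same side in all 18 strains left 1 pair above its partner, miR-140*, and 27 below. With 1 strain left out the pairs above were 2 (without strain 2) to 3 and the median ratio lay between -4.26 and -4.04. The number of arms with an SD of at least 1 was 1 with total counts alone and with a pseudocount of 0.25 CPM, and 0 to 1 with a strain left out, always miR-376a*. Signs were compared only for pairs named by the rule given above, which leaves out miR-99b* and miR-322*. Among the compared pairs, called correlations and ratios kept their sign in these alternatives. Of the uncalled correlations, 7 (let-7a*, let-7b*, miR-16*, miR-20a*, miR-330*, miR-503* and miR-674*) changed sign in at least 1 alternative. The cause of these changes was not tested, except that filters change the pairs tested. Low reads limit the ratios of arms under 10 CPM. No paired analysis was possible because each strain is 1 library and no number is shared between groups.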
